A study of Mus musculus with 2 samples.

Results

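Natural killer cells of the mouse pancreas were described here from single-cell RNA-seq of 2 libraries, and 167 of 22352 cell barcodes met the rule for them. The members were chosen by their own measured UMIs: the rule asked for at least 1000 UMIs (unique molecular identifiers, which count RNA molecules), at most 25% of UMIs from mitochondrial genes, and at least 2 UMIs in all of Ncr1, Klrb1c, Klre1 and Eomes. Barcodes with more than 1 UMI of Cd3d, Cd3e and Cd3g, more than 1 UMI of Cd79a and Ms4a1, or at least 1% of UMIs from Lyz2 were left out, limits meant for T cells, B cells and myeloid cells. The CP library (pancreas of mice treated with Cae) held 65 such cells among 13507 barcodes, and the CP+EVs library (Cae plus EVs, extracellular vesicles) held 102 among 8845. Both libraries carry the same condition label, pancreatitis induced by Cae. That label calls the pancreatitis acute, whereas the series title names a chronic one and vesicles induced by physical exercise. Strain, age, sex, the number of animals in each suspension, and the doses and times of Cae and vesicles were not given in the sources used here. There was no library without Cae, and 1 library per treatment allows no test. All intervals below are 95% intervals for counting error only, and a difference between the libraries cannot be told apart from a difference between the animals or suspensions that gave them.

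Natural killer (NK) cells are innate lymphocytes that kill stressed, infected or transformed cells without a rearranged antigen receptor. They weigh signals from activating receptors (NKp46, encoded by Ncr1, and NKG2D, encoded by Klrk1) against inhibitory receptors for MHC class I. In mice these inhibitory receptors are mainly Ly49 proteins of the Klra genes and the CD94/NKG2A heterodimer of Klrd1 and Klrc1. Other Ly49 proteins are activating receptors, with DAP12 (Tyrobp) as their adaptor, so a higher Klra level does not by itself mean more inhibition. Killing uses perforin (Prf1) and granzymes (Gzma, Gzmb) released from granules, and chemokines such as Ccl3, Ccl4, Ccl5 and Xcl1 recruit other cells. The related type 1 innate lymphoid cells (ILC1) stay in tissues, share Ncr1 and Klrb1c with NK cells, usually carry CD49a (Itga1), CXCR6, CD200R1 and the interleukin 7 receptor, and usually lack Eomes and the late maturation receptor S1pr5.

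The accounting of the rule was as follows. With at least 1000 UMIs and at most 25% mitochondrial UMIs, 8426 barcodes remained in CP and 6849 in CP+EVs. At least 2 UMIs of the 4 rule genes were present in 128 and 213 of these. The Cd3 limit removed 58 and 106, the B cell limit then removed 0 and 3, and the Lyz2 limit removed 5 and 2. NK cells were 0.771% (exact Clopper-Pearson interval 0.596 to 0.982) of kept barcodes in CP and 1.49% (1.22 to 1.805) in CP+EVs. The log2 ratio of these shares was 0.95 (0.49 to 1.42), and it lay between 0.70 and 1.40 under the other cell filters and denominators. Among NK and T cell barcodes together, the NK share was 10.4% (8.12 to 13.1) in CP and 16.9% (14.0 to 20.2) in CP+EVs. The shares of both libraries depend on which other cells each suspension held, and no doublet caller was run.

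The NK cells of CP held 200587 UMIs, with a median of 2520 per cell (1054 to 8631), and those of CP+EVs held 405307, with a median of 3279.5 (1027 to 18977). The median number of genes per cell was 1392 and 1669, and the median mitochondrial share was 3.04% and 3.37%. The rule counts molecules, so deeper cells pass it more easily. Of all barcodes, 118 sequences occurred in both libraries, and 0 of these were NK cells in both.

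Levels are given as CPM, the UMIs of a gene per 1000000 UMIs summed over the NK cells of a library, so that each library gives 1 value per gene. The 4 rule genes were present by construction, and their levels describe the selection. Ncr1 was at 513 CPM (419 to 623) in CP and 449 (386 to 519) in CP+EVs. Klrb1c (NK1.1) was at 723 and 634 CPM, Klre1, an NK receptor subunit, at 808 and 703, and Eomes, a T-box transcription factor of NK cells, at 449 and 299. In CP, 22 of 65 cells held UMIs of all 4 genes and 9 held only 1 of them. In CP+EVs these numbers were 23 and 11 of 102. The median cell held 6 UMIs of the 4 genes in CP and 7 in CP+EVs.

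NK genes that the rule did not use were also present. Gzma was at 5763 CPM in the NK cells of CP against 147 in its T cells (575 in CD8 T cells), and at 3528 against 36.2 (83.3) in CP+EVs. Barcodes with NK marker UMIs and more than 1 Cd3 UMI, which belong to neither class, held Gzma at 5862 and 2468 CPM, so Gzma alone does not set NK cells apart. Prf1 was at 578 against 10.9 CPM in CP and at 415 against 23.1 in CP+EVs. The T cells compared here were the 560 and 501 barcodes with at least 2 Cd3 UMIs and at most 1 UMI of the rule genes, so the rule genes differ between the classes by construction. The same limit kept the Cd3 barcodes with NK marker UMIs, 56 and 100, out of the T cells. Genes expressed together with the rule genes, Gzma among them, are therefore lowered in these T cells by the selection too. Of 1749 genes at 100 CPM or more in the NK cells of both libraries, 25 were at least 10-fold higher than in the T cells so chosen in both. This count and the order below describe the selection and are not read as support. Ordered by the smaller of both ratios, the leading 15 were Klra8, Klra4, Klri2, Klra7, Klrb1c, Klra9, Klre1, Ncr1, Klra3, Styk1, Serpinb9b, Klrb1a, Klrc2, Gzma and Cd244a. This list holds 5 Ly49 genes, several other lectin-like receptors of the NK gene complex on chromosome 6, the granule protease Gzma, and the protease inhibitor Serpinb9b. Klrb1c, Klre1 and Ncr1 in it are rule genes.

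**Figure D1:**
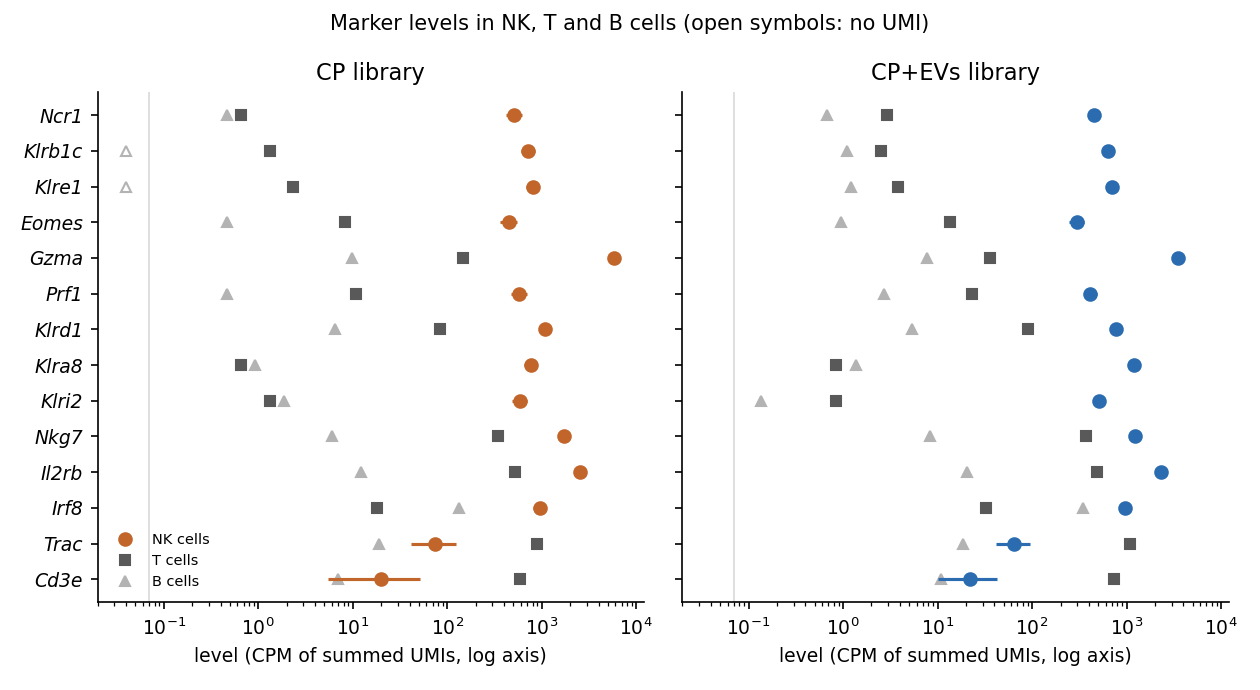
Level of 14 genes (CPM of summed UMIs, log axis) in NK cells (circles, with exact Poisson 95% intervals), T cells (squares) and B cells (triangles) of each library; open symbols left of the grey line mark genes without a UMI. In both libraries the NK and granule genes lie to the right in NK cells, with Gzma at 5763 and 3528 CPM, while Trac and Cd3e lie to the right in T cells. Ncr1, Klrb1c, Klre1, Eomes and Cd3e were used to choose the cells, so their places describe the selection.

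Most of the T cell markers were low in the NK cells. For Cd3d, Cd3e and Cd3g this was fixed by the rule, which limits their UMIs in each cell. Cd3d was at 4.99 and 2.47 CPM and Cd3e at 19.9 and 22.2. Trac, which the rule does not use, was at 74.8 and 64.1 CPM, against 896 and 1082 CPM in T cells. Trbc1 was higher in the NK cells (489 and 501 CPM) than in T cells (267 and 394); transcription of T cell receptor constant regions without a rearranged receptor is known in NK cells. Trbc2 was at 209 and 284 CPM. The 13 T cell markers summed to 897 CPM in CP and 1019 in CP+EVs, close to equal, and 3 and 1 of them were at 0. Genes of gamma delta T cells summed to 174 and 104 CPM and those of type 2 innate lymphoid cells to 339 and 395. Genes of B cells summed to 44.9 and 138 CPM and those of plasma cells to 324 and 432. The T cell, gamma delta T cell and type 2 innate lymphoid sums were above the whole-library level in both libraries (193% and 152% of it for T cell genes). RNA of other cell types in the NK barcodes differed between the libraries. The 18 acinar genes summed to 150 CPM in the NK cells of CP and to 46528 in CP+EVs, the 7 neutrophil genes to 2049 and 24.7, and the 8 fibroblast genes to 7209 and 3247. These sums were 24.3% and 36.8% (acinar), 31.9% and 14.8% (neutrophil) and 28.2% and 25.3% (fibroblast) of the level in the whole library. Free RNA and doublets cannot be told apart here, the part of this RNA in any NK difference below was not tested, and acinar, neutrophil and fibroblast genes are not read as NK expression.

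At the edge of the rule, the 9 and 12 cells with exactly 2 UMIs of the rule genes held Gzma at 1258 and 1296 CPM and Klrd1 at 577 and 341. The 60 and 131 barcodes with exactly 1 such UMI, which fall outside, held Gzma at 42.2 and 27.0 CPM and Klrd1 at 129 and 29.4. The Gzma levels of the cells with exactly 2 rested on few cells. A single CP cell held 17 Gzma UMIs and a single CP+EVs cell 33, much of each sum. Others held no Gzma UMI, among them a CP+EVs cell of 11497 UMIs, so these levels do not describe every cell at the edge.

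The promoters of a receptor gene, 2 granule genes and 1 gene of the tissue-resident programme are shown as examples from the groups of genes described below. Each is the 250 bases before the gene's start on its own strand, from RefSeq, build GRCm38.p6. Capitals mark RUNX (TGTGGT), ETS (AGGAAG) and T-box core (AGGTGT) matches on either strand. The windows are chr7:4337465-4337714, plus strand, for Ncr1; chr13:113100982-113101231, minus strand, for Gzma; chr10:61297586-61297835, plus strand, for Prf1; and chr13:115101965-115102214, minus strand, for Itga1.
Ncr1: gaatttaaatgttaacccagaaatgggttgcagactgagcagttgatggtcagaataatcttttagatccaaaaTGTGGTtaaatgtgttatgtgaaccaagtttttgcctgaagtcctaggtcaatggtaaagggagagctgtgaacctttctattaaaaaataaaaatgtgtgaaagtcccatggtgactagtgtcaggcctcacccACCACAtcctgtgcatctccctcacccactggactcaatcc
Gzma: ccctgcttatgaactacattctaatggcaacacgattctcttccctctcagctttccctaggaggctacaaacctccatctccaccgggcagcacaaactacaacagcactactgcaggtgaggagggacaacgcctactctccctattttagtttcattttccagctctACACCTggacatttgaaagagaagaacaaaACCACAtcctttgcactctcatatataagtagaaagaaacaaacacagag
Prf1: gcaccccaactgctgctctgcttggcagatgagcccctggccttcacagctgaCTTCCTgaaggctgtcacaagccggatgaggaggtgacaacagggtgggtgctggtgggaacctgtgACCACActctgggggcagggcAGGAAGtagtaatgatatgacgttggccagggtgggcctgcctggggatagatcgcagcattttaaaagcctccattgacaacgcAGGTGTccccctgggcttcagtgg
Itga1: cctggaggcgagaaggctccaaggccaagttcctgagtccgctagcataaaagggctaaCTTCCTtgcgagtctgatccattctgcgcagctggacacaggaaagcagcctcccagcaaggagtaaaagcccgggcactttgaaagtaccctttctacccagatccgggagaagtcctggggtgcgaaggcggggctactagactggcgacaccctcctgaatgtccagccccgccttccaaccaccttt
Ncr1 held 2 RUNX matches, 1 on each strand. Gzma held 1 RUNX and 1 T-box core match, Prf1 held 1 RUNX, 1 T-box core and 2 ETS matches, and Itga1 held 1 ETS match. The window of S1pr5, a gene of the mature stage, was searched too and is not shown: it held 0 matches of each kind. RUNX matches occurred in 14.2% of 27025 promoters of this length, in 12 of 23 cytotoxic genes, in 1 of 9 genes of the tissue-resident list and in 3 of 12 of the mature stage list. T-box core matches occurred in 11.99% of all promoters in 5 of the 23 cytotoxic ones, and in 0 of the 9 and 0 of the 12. ETS matches occurred in 29.2% of all, in 15 of the 23, 5 of the 9 and 6 of the 12. T-box core and RUNX matches can share letters, and none do in the windows shown. Several granzyme genes lie in 1 cluster and have similar sequence, so these promoters are not independent, and a match is a description of the letters only. Gzmc, Gzmd, Gzme, Gzmf and Gzmm count among the cytotoxic RUNX and ETS matches. Gzmc had 1 UMI in the NK cells of CP+EVs and 0 in CP, and the others had 0 in both, so these counts include genes that the cells hardly expressed.

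Between the libraries, most of what the NK cells expressed differed little. A gene counted as measured with at least 20 CPM in 1 library and at least 20 UMIs in all, and 5110 did. Of these, 275 (5.38%) were at least 2-fold higher in CP+EVs and 297 (5.81%) at least 2-fold lower, and the median log2 ratio (CP+EVs over CP, 0.5 counts added) was -0.09. These counts include acinar, neutrophil and fibroblast RNA. Another scaling, by the median of the ratios, moved the median to 0.08, with 366 genes then at least 2-fold higher and 190 lower. Under it the medians of the receptor, receptor signalling, cytokine, cytokine receptor and transcription factor lists given below turned positive (0.03 to 0.10), so their sign has no firm direction. The lists below are read against these shares.

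Several genes of the tissue-resident or ILC1 programme were higher in the NK cells of CP+EVs. Of 9 measured genes of the 10 listed, 5 were at least 2-fold higher and 0 lower, with a median log2 ratio of 1.05, against 5.38% of all measured genes higher. These 5 were Itga1, the collagen-binding integrin subunit CD49a; Inpp4b, a phosphoinositide phosphatase; Il7r, the interleukin 7 receptor; Cxcr6, a chemokine receptor of tissue-resident lymphocytes; and Cd200r1, an inhibitory receptor. Itga1 (chromosome 13, 114953096 to 115101964, minus strand, mm10) had 6 UMIs in 5 of 65 CP cells and 64 UMIs in 25 of 102 CP+EVs cells. Its level was 29.9 CPM (10.98 to 65.1) and 158 CPM (122 to 202), a log2 ratio of 2.30 (1.20 to 3.90). Inpp4b was at 39.9 and 158 CPM, a log2 ratio of 1.91 (0.92 to 3.26), and 1 CP cell held 6 of its 8 CP UMIs. Il7r was at 165 CPM (113 to 231) and 345 CPM (291 to 408), a log2 ratio of 1.05 (0.51 to 1.66). The rule does not require Eomes, and 27 of the 65 CP members and 51 of the 102 CP+EVs members held no Eomes UMI. ILC1 can therefore be among the cells called NK cells here. Whether these levels come from NK cells or from ILC1 among the members was not tested.

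Cxcr6 and Cd200r1 rested on few molecules and passed the filter on low values only through CP+EVs, where they are higher, so neither they nor the count and median of the list are read as support. Cxcr6 had 1 UMI in CP and 19 in CP+EVs, a log2 ratio of 2.69 (0.58 to 8.61), and Cd200r1 had 3 and 21, a log2 ratio of 1.60 (0.05 to 4.18). Without the barcode that held most of each gene's UMIs in each library, the log2 ratios of the 5 genes were 1.11 to 3.84. This step took away the only CP UMI of Cxcr6 and 6 of the 8 CP UMIs of Inpp4b. Their ratios rose to 3.84 and 3.49 through the removal itself, so these values are not read as support. With the rule applied after each barcode was thinned to 1000 UMIs, the median of the list became -0.043 over 7 measured members, while the log2 ratios of these 5 genes stayed above 0 in all 17 settings run. Inpp4b fell below the 2-fold limit in that setting (0.78), and Il7r did so in 5 settings, with 0.78 as its lowest value. Itga1 stayed between 2.13 and 2.61. The remaining measured members included Tmem176a at -0.13 and Tmem176b at -0.29. T cells express several of these genes at higher levels than NK cells, with Il7r at 1028 and 1380 CPM, and their Itga1 level was also higher in CP+EVs (51.1 and 117 CPM). The part of T cell RNA in the NK values was not tested. The sum of T cell markers in NK cells given above includes the Cd3 genes, which the rule limits.

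Detection per cell at equal depth gave the same order with wider intervals. After each cell was thinned to 1000 UMIs, 1.54% (exact Clopper-Pearson interval 0.0389 to 8.28) of CP cells and 9.80% (4.80 to 17.3) of CP+EVs cells held an Itga1 UMI. The share in B cells, which should lack it, was 0.571% and 0.794%. Il7r was detected in 6.15% (1.70 to 15.01) and 14.7% (8.47 to 23.1) of NK cells, and in 0.857% and 1.499% of B cells. Without thinning, Il7r was detected in 10 of 65 and 22 of 102 NK cells. The B cells' median depth before thinning was 2852 and 4428.5 UMIs. The intervals of Itga1 and of Il7r overlap between the libraries, and Cxcr6 (0 and 1 cell) is too rare at this depth to order. At least 1 of the 5 genes, a set chosen after their values were seen, was present in 10.8% (4.44 to 20.9) of thinned CP cells and 28.4% (19.9 to 38.2) of thinned CP+EVs cells. Unthinned, these shares were 24.6% and 42.2%.

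**Figure D2:**
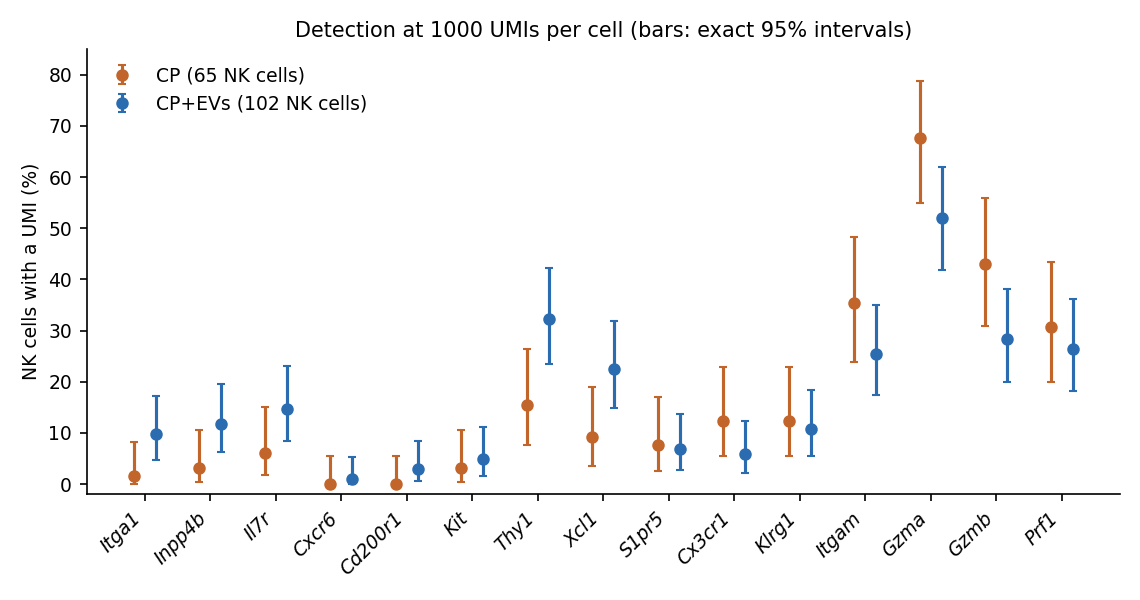
Share of NK cells with at least 1 UMI of each gene after thinning to 1000 UMIs per cell, in CP (65 cells) and CP+EVs (102 cells), with exact 95% intervals. Itga1, Inpp4b, Il7r, Thy1 and Xcl1 were detected in a larger share of CP+EVs cells and Itgam, Gzma and Gzmb in a smaller one, with intervals that overlap between the libraries.

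Within CP+EVs, the 25 cells with an Itga1 UMI differed from the 77 without one in more than that gene. They held 130656 UMIs in all against 274651, so they were deeper per cell. Levels of the tissue-resident genes were higher in them, with Inpp4b at 329 CPM (238 to 443) against 76.5 (47.3 to 117) and Il7r at 474 CPM (364 to 608) against 284 (225 to 354). Effector genes were lower in the summed UMIs, with Gzma at 1378 CPM (1184 to 1594) against 4551 (4302 to 4811), Gzmb at 199 CPM against 1413, and Prf1 at 130 CPM (75.8 to 208) against 550 (466 to 645). The Gzma level of the 25 cells rested on few of them. A single cell held 65 Gzma UMIs and another 40, while others held none, among them a cell of 18977 UMIs. The intervals do not measure this spread between cells. Genes of circulating mature NK cells were lower too: Itgam (CD11b) was at 191 against 444 CPM, and Klrg1 at 22.96 against 160. S1pr5, the receptor for exit into blood, had 0 UMIs in the 25 cells (up to 28.2 CPM) and 54.6 CPM in the 77. Trac was at 45.9 CPM in the 25 cells against 72.8 in the 77. Cd3e was at 30.6 CPM against 18.2, but the rule limits Cd3 UMIs in every member, so a low Cd3e level was fixed in both groups. Eomes remained present in 10 of the 25 cells, at 199 CPM against 346. The CP library had only 5 cells with an Itga1 UMI, in which Gzma was at 3682 CPM against 5967 in the other 60. Il7r, at 55.8 CPM against 175, and Inpp4b, at 0 against 43.8, were not higher in those 5 cells, unlike in CP+EVs.

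**Figure D3:**
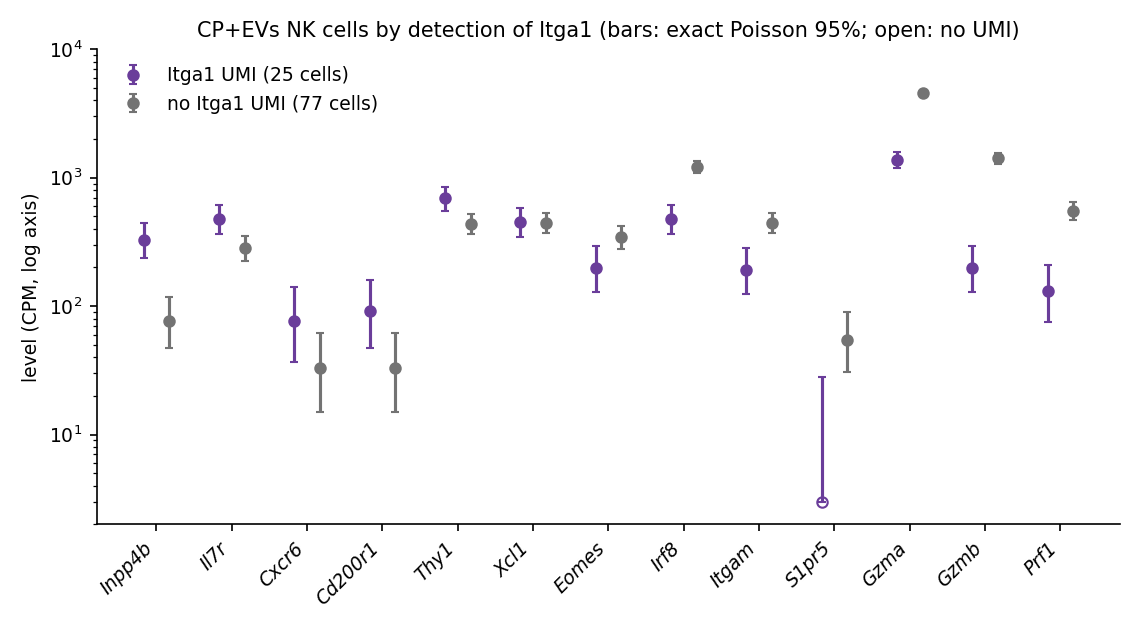
Levels (CPM, log axis) in the 25 CP+EVs NK cells with an Itga1 UMI and the 77 without, with exact Poisson 95% intervals; the open symbol marks S1pr5, which had no UMI in the first group. Inpp4b and Il7r were higher, and Gzma, Gzmb, Prf1 and Itgam lower, in the cells with an Itga1 UMI.

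Genes of early and late NK maturation stages had medians on opposite sides of 0. Of 14 measured genes of the CD27 stage, which marks less mature NK cells, 2 were at least 2-fold higher in CP+EVs (Kit, the stem cell factor receptor, log2 ratio 1.503, and Il7r) and 0 lower, with a median of 0.55. Thy1 was at 319 and 518 CPM (log2 ratio 0.69, 0.29 to 1.13), and Xcl1, the chemokine that draws XCR1 dendritic cells, at 239 CPM (176 to 317) and 449 CPM (386 to 519). Of 15 measured genes of the mature stage, 0 were at least 2-fold higher and 1 lower, S1pr5, with a median of -0.49. S1pr5 (chromosome 9, 21242912 to 21248443, minus strand, mm10) had 21 UMIs in 13 CP cells and 15 UMIs in 12 CP+EVs cells, 105 CPM (64.8 to 160) and 37.0 CPM (20.7 to 61.0). After thinning, S1pr5 was detected in 7.69% and 6.86% of cells. Itgam was at 588 and 363 CPM (log2 ratio -0.70, -1.06 to -0.34), and Ly6c2 at 713 and 410 CPM. Itgam and Ly6c2 are also expressed by myeloid cells, and the part of myeloid RNA in these values was not tested. The 10 macrophage markers summed to 2817 and 1961 CPM in the NK cells. Most of that sum came from Ly6c2 itself, Ccr2 (887 and 804 CPM) and Lyz2 (872 and 575 CPM), which the rule limits. The sum therefore does not measure myeloid RNA apart from Ly6c2.

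Most of the 25 listed cytotoxic genes were present in both libraries, 4 had no UMI in either, and none of those measured differed by 2-fold. Of 18 measured genes, 0 were at least 2-fold higher and 0 lower, with a median log2 ratio of -0.41 and a range from -0.71 to 0.57; 12 lay below 0 and 6 above. The median stayed below 0 in all 17 settings run, from -0.47 to -0.12. Gzma (chromosome 13, 113093825 to 113100981, minus strand) had a log2 ratio of -0.71 (-0.82 to -0.60), and it was detected in 67.7% of thinned CP cells and 52.0% of thinned CP+EVs cells, against 1.14% and 0.882% of B cells. Without thinning it was detected in 46 of 65 and 61 of 102 cells. Prf1 had a log2 ratio of -0.48 (-0.83 to -0.13), with 116 UMIs in 38 CP cells and 168 UMIs in 55 CP+EVs cells. Gzmb was close to equal, at 1112 and 1021 CPM, but 1 CP+EVs cell held 90 of its 414 UMIs. Nkg7, a granule membrane protein, was at 1705 and 1231 CPM, and Serpinb9, which protects the killer cell from its own granzyme B, at 1361 and 923. Serpinb9b, a related inhibitor that this list does not hold, was at 464 and 227 CPM (log2 ratio -1.03), lower by more than 2-fold. Among the death ligands, Fasl was at 239 and 281 CPM and Tnfsf10 (TRAIL) at 39.9 and 61.7. Gzma, Gzmb and Prf1 were found together in 33 of 65 CP cells and 32 of 102 CP+EVs cells, and none of them in 16 and 29.

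The receptors as a group had a median log2 ratio of -0.10 over 30 measured genes, 2 of them at least 2-fold higher and 2 lower. The higher ones were Cd226 (DNAM-1, an activating receptor), at 99.7 and 212 CPM with a log2 ratio of 1.06 (0.38 to 1.87), and Klra1, at 39.9 and 83.9 CPM with an interval of -0.07 to 2.39 on the log2 scale. The lower ones were Klra3, at 369 CPM (290 to 463) and 163 CPM (126 to 207), and Klra5, at 99.7 and 24.7 CPM, which was held by 4 and 3 cells. Klrk1 (NKG2D) was at 578 and 748 CPM (log2 ratio 0.37, 0.06 to 0.69), and Klrd1 (CD94) at 1087 and 775 CPM. Klrc1, Cd96 and Tigit, inhibitory receptors, had log2 ratios of -0.04, -0.03 and -0.14.

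Ly49 genes were expressed in combinations that differed from cell to cell. Of the 9 Klra genes, the median cell held UMIs of 2 in CP and 2.5 in CP+EVs, and 17 and 25 cells held none. At 1000 UMIs per cell, at least 2 Klra genes were seen in 46.2% of CP cells and 52.0% of CP+EVs cells. Klra8 (Ly49H; chromosome 6, 130115226 to 130129898, minus strand) was at 763 CPM (647 to 894) and 1202 CPM (1097 to 1313), a log2 ratio of 0.65 (0.39 to 0.93). It was found in 25 and 45 cells, and 1 CP+EVs cell held 62 of the 487 UMIs. Klra4 (Ly49D) was at 533 and 753 CPM, Klra9 at 728 and 558, and Klra7 at 459 and 442. The Klra genes lie side by side and resemble each other. Of the 50-base stretches of their transcripts, 33.1% of Klra8, 31.5% of Klra9, 20.7% of Klra3 and 12.3% of Klra7 also occurred in another Klra gene or pseudogene, so how reads were shared among them is uncertain. In Klra4, Klra1 and Klra5 at most 4.35% did.

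**Figure D4:**
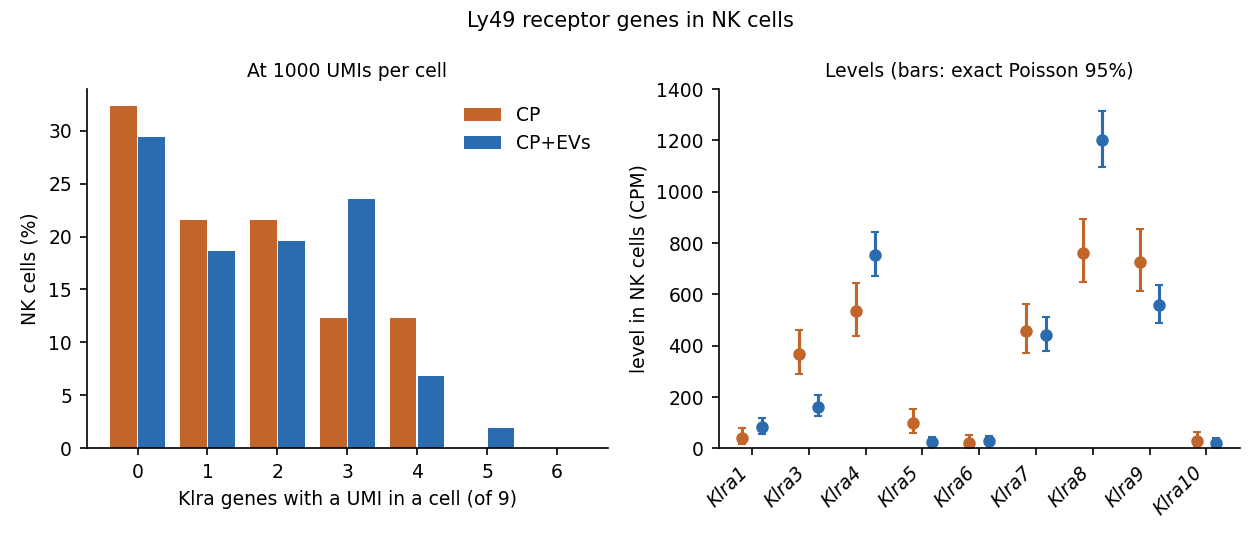
Left, share of NK cells of each library by the number of the 9 Klra genes with a UMI at 1000 UMIs per cell; right, level of each gene (CPM) with exact Poisson 95% intervals in CP (orange) and CP+EVs (blue). Most cells hold 0 to 4 of the genes, Klra8 and Klra4 are higher in CP+EVs, and Klra3 and Klra5 are lower.

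Receptor signalling genes had a median log2 ratio of -0.11, with 1 of 20 measured genes at least 2-fold lower and 0 higher. That gene was Hcst (DAP10, the adaptor of NKG2D; chromosome 7, 30417712 to 30419854, minus strand), with 46 UMIs in 32 of 65 CP cells and 30 UMIs in 23 of 102 CP+EVs cells. Its level was 229 CPM (168 to 306) and 74.0 CPM (49.9 to 106), a log2 ratio of -1.62 (-2.35 to -0.94). At equal depth Hcst was detected in 29.2% (18.6 to 41.8) of CP cells and 7.84% (3.45 to 14.9) of CP+EVs cells. In T cells Hcst was also lower in CP+EVs, at 134 and 80.4 CPM, and in thinned B cells it was detected in 2.57% and 0.353%. Tyrobp (DAP12), the adaptor of activating Ly49 receptors, was at 1675 and 903 CPM (log2 ratio -0.89, -1.11 to -0.67). Tyrobp is also a myeloid gene, and its T cell level was 266 and 57.7 CPM. The adaptor Fcer1g was at 1855 and 1680 CPM, and the kinase Syk at 145 and 170.

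Cytokine and chemokine genes had a median of -0.13 over 10 measured genes, with Csf1 (15 and 9 UMIs) the 1 gene at least 2-fold lower. Ccl5 was at 5594 and 3768 CPM (log2 ratio -0.57, -0.68 to -0.46), while Ccl3, at 404 and 464, and Ccl4, at 728 and 637, had intervals that include no difference. Ifng had 12 UMIs in CP and 21 in CP+EVs, 59.8 and 51.8 CPM, so a difference was not detectable at this depth. Of 19 measured cytokine receptors, 2 were at least 2-fold higher (Il7r and Il27ra) and 1 lower (Tgfbr1, log2 ratio -1.08). The interleukin 15 receptor chain Il2rb was at 2523 and 2334 CPM, and the interleukin 18 receptor chains Il18r1 and Il18rap had log2 ratios of -0.69 and -0.63. Of 28 measured transcription factors, 0 were at least 2-fold higher and 0 lower, with a median of -0.07. Tbx21 (T-bet) was at 184 and 138 CPM with an interval of -1.04 to 0.22 on the log2 scale, Irf8 at 947 and 972, and Ets1 at 708 and 1007 (log2 ratio 0.50, 0.23 to 0.79).

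Interferon signalling is named in the series title, and its target genes differed in both directions in the NK cells. Of 31 measured type I interferon-stimulated genes of 56 listed, 2 were at least 2-fold higher (Slfn8 and Ifi213) and 5 lower (Rtp4, Ms4a6b, Ifitm3, Herc6 and Parp9), with a median log2 ratio of -0.23. Ifitm3 was at 603 CPM (501 to 721) and 269 CPM (221 to 324), and its T cell level was 1047 and 483 CPM. Slfn8 was at 34.9 and 123.4 CPM, with 7 UMIs in 6 CP cells and 50 in 30 CP+EVs cells. Isg15, Irf7 and Ifit3 had at most 5 UMIs in either library. Of 17 measured interferon gamma targets, 4 were at least 2-fold higher (Gbp2, Gbp9, Iigp1 and Cxcl10) and 0 lower, with a median of 0.04, against 5.38% of all measured genes higher. Cxcl10 had 1 UMI in CP and passed the filter only through CP+EVs, where 1 cell held 40 of its 49 UMIs. Of the 26 listed targets, 6 had no UMI in CP and 1 had none in CP+EVs, so the count of 4 is not read as support. Of 8 measured genes of the STING pathway, which senses DNA in the cytosol, 0 were at least 2-fold higher and 0 lower, with a median of 0.00. Sting1 itself was at 99.7 CPM (60.9 to 154) and 104 CPM (74.7 to 140), a log2 ratio of 0.04 (-0.75 to 0.90), an interval that leaves room for differences in both directions. Of 17 measured MHC class I genes, 0 passed 2-fold, with B2m at 4108 and 4071 CPM.

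**Figure D5:**
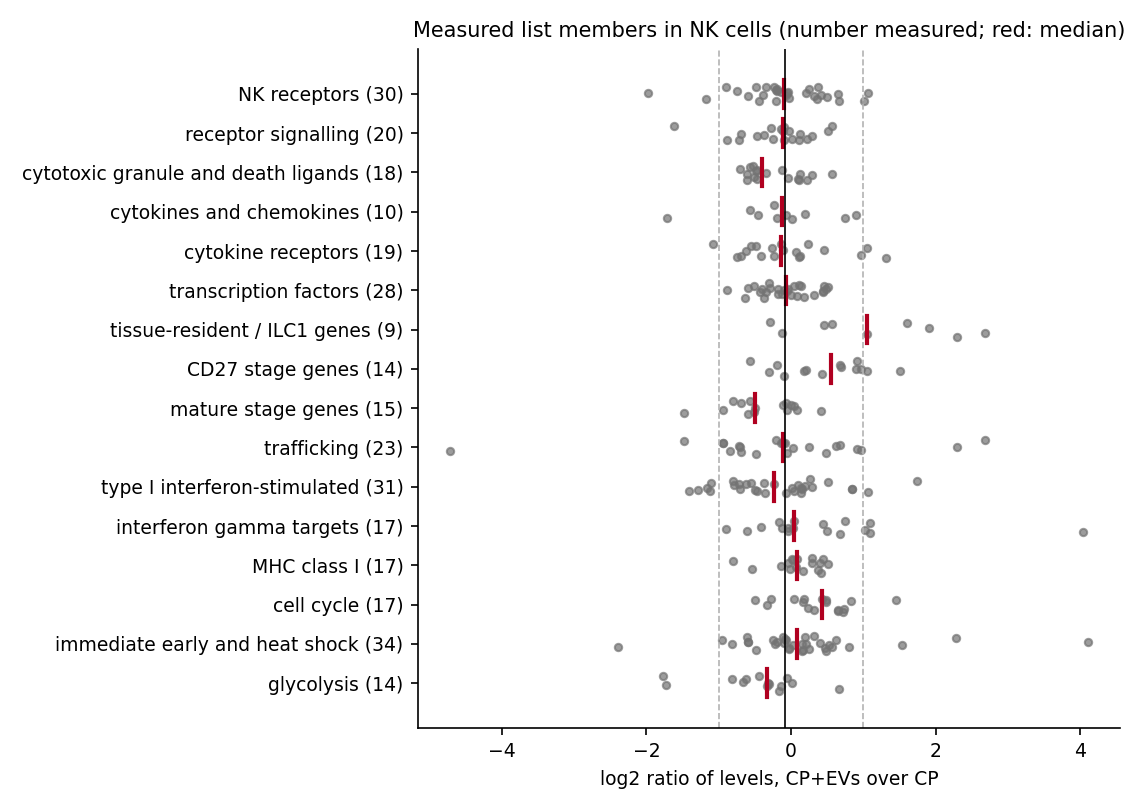
Log2 ratio of levels (CP+EVs over CP) of each measured gene (grey points) of 16 lists in NK cells, with the number measured in brackets, the list's median in red, the median of all measured genes as a solid line and 2-fold as dashed lines. The median of the tissue-resident list is at 1.05 and that of the CD27 stage at 0.55, while the mature stage is at -0.49 and the cytotoxic list at -0.41.

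Of the 34 immediate early and heat shock genes, all measured, 3 were at least 2-fold higher in CP+EVs (Hspa1a, Hspa1b and Jun) and 1 lower, with a median of 0.09. Hspa1a, an inducible heat shock chaperone, passed the filter on low values only through CP+EVs, where it is higher. Neither its ratio nor the count of 3 is read as support. Hspa1a had 3 UMIs in CP and 121 in CP+EVs, a log2 ratio of 4.10 (2.74 to 6.62). Of these, 69 were in 1 CP+EVs cell of 15151 UMIs that also held 62 UMIs of Cd209a, a dendritic cell lectin, and 4 UMIs of the rule genes. Without that cell the log2 ratio of Hspa1a was 2.95, that of Hspa1b 1.47 against 2.28 with it, and that of Jun 1.502 against 1.54, and the median of the list was -0.0027. Hspa1a was also higher in the T cells of CP+EVs (119 and 276 CPM). Ier3, an immediate early gene, was lower at 224 and 41.9 CPM. Of 17 measured cell cycle genes, 1 was at least 2-fold higher, Top2a (log2 ratio 1.46), with a median of 0.43. Top2a was at 0.71 without the 2 deepest NK cells of each library and at 3.01 without the cell that held most of its UMIs in each. Mki67 and Top2a together had 38 UMIs in CP, 31 of them in 2 cells, and 162 in CP+EVs, 133 of them in 5 cells.

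Over all genes at 100 CPM or more in 1 library, with at least 30 UMIs and at least the level of the whole library, the 12 highest log2 ratios belonged to Cxcl10, Cd209a, Itga1, Inpp4b, Slfn8, Chp1, Ccdc25, Oxsr1, Akap11, Stim2, Srek1 and Slc25a24. All 12 reached 100 CPM only in CP+EVs, where they are higher, and were picked by the ratio itself. Their ratios and intervals describe this selection and are not read as support. Cxcl10 and Cd209a were matters of single cells: 1 CP+EVs cell held 40 of the 49 UMIs of Cxcl10 and the cell described above held 62 of the 63 of Cd209a. Without the cell that held most, the log2 ratio of Cxcl10 was 3.24 and that of Cd209a 0.56. The others were spread over 23 to 35 CP+EVs cells. Among them, Stim2, a calcium sensor of the endoplasmic reticulum, had 10 UMIs in 8 CP cells and 54 in 34 CP+EVs cells (log2 ratio 1.36, 0.43 to 2.56). Chp1, a calcium-binding partner of sodium-proton exchangers, had 9 and 63 UMIs (1.73, 0.78 to 2.99), and Oxsr1, a kinase of cell volume control, 8 and 51 (1.58, 0.57 to 2.94).

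The 12 lowest belonged to Kcnq1ot1, Ctr9, Nr1d2, Nbeal1, Scd2, Ube2e3, Hcst, Slc26a2, Gfod1, S1pr5, Rnf6 and Gsap. All 12 reached 100 CPM only in CP, where they are higher, so the same limit holds for their ratios and intervals. Kcnq1ot1, a long noncoding RNA antisense to Kcnq1, had 27 of its 34 CP UMIs in 1 cell, and Ctr9, a subunit of a transcription elongation complex, had 27 of 44 in 1 cell. Without those cells their log2 ratios were -1.02 and -0.90. Whether the counting used strand was not given in the sources used here. Nr1d2 (REV-ERB beta, a repressor of the circadian clock) had 24 UMIs in 20 of 65 CP cells and 14 in 13 of 102 CP+EVs cells, a log2 ratio of -1.77 (-2.86 to -0.78). Scd2, a fatty acid desaturase, had 31 and 19 UMIs (-1.71, -2.63 to -0.85), and it was also lower in T cells (112 and 43.8 CPM). Ube2e3, a ubiquitin-conjugating enzyme, had 39 and 25 UMIs (-1.65, -2.44 to -0.90).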

How the data were processed

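RNA of single mouse pancreas cells was read on BD Rhapsody, with 1 library for each of 2 treatments. The authors deposited UMI counts per gene and barcode, not normalized, as a sparse matrix per library (31253 gene identifiers, 48 symbols found more than once, at least 501 UMIs per barcode, 51652425 UMIs in CP and 38532775 in CP+EVs). The submitters' processing notes name CASAVA 1.8, UMI-tools, Seurat and the build mm10, and their settings are not stated there. Of the identifiers, 31184 occur in GENCODE vM21, which gave the gene coordinates (mm10); promoter windows came from RefSeq.

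NK barcodes were taken by the rule in the opening of the results, and the members and all gene lists were chosen with earlier results of these data known. Counts were summed over NK cells per library and divided by their total (CPM), with exact Poisson intervals; ratios had exact conditional binomial intervals, log2 ratios 0.5 added counts, and shares exact Clopper-Pearson intervals (95%). A fold of 2 counted as called. Samples of 1 library per group allow no test, so there are no p-values. Shares at equal depth came from thinning each cell to 1000 UMIs at random (seed 7). No clustering and no doublet caller was used. Named genes were the 6 markers, the 12 highest and 12 lowest log2 ratios (at least 100 CPM in 1 library, at least 30 UMIs, at least the library's level in the library where the gene is higher, without acinar, Reg, mitochondrial, haemoglobin, immunoglobulin, ribosomal, Gm and Rik genes), the 15 highest over T cells, and leading list members; other members were named for their known role. The ratio script was tested on simulated data. Python 3.11.15, numpy 2.4.6, scipy 1.17.1 and pandas 2.3.3 were used. Alternatives changed the depth, mitochondrial, marker and Cd3 limits, the scaling, the filters, the added counts and the deepest cells.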

Additional observations from a re-analysis of the deposited data

Results flagged for a closer look

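Top2a, a topoisomerase of dividing cells, was higher in the NK cells of CP+EVs than of CP (log2 ratio 1.46) and lower in the T cells of CP+EVs than of CP (log2 ratio -0.79). It stood out because the single CP and CP+EVs values moved in opposite directions in both cell types. The difference between the cell types was not tested. In NK cells 1 CP cell held 13 of the 16 UMIs and 1 CP+EVs cell held 36 of the 91. Its log2 ratio was 0.71 without the 2 deepest NK cells of each library and 3.01 without the cell that held most of its UMIs in each.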

How the results depend on the processing

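No paired analysis was possible because each treatment had 1 library and no test was run. Of the recomputed shares, counts and list medians, 372 moved by less than their interval or by less than 1.5 times, 7 moved further, and 1 that had passed 2-fold changed direction; list medians under 2-fold that changed sign stand among the 372. Of the recomputed values of single genes, 678 stayed within their interval, 23 moved further and 3 changed direction. Genes at least 2-fold higher in CP+EVs numbered 275, and 1761 without a CPM minimum, 93 at 100 CPM or more and 625 at 1.5-fold. Genes at least 2-fold lower numbered 297, and 2627, 142 and 878 under those settings, and 190 with median-of-ratios scaling. With the rule applied after thinning to 1000 UMIs, the median of the tissue-resident list was -0.043, Cd209a was at -1.35 and Kcnq1ot1 at 0.37, and without the CP+EVs barcode with most Cd209a UMIs, Cd209a was at -1.70; fewer cells and fewer measured genes enter the thinned setting. Leaving out the barcode with most UMIs of each gene, or the 1 with most of Cd209a, was chosen after seeing the data, as was the denominator of NK and T cells. The 65 and 102 cells limit every gene with fewer than about 20 UMIs to wide intervals, and Ifng, Isg15 and Irf7 cannot be compared.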

Other observations

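Barcodes that met the UMI, mitochondrial, B cell, Lyz2 and NK marker limits but held more than 1 Cd3 UMI numbered 56 in CP and 100 in CP+EVs. They carried T cell receptor and CD8 genes, with Trac at 1532 and 1465 CPM and Cd8a at 682 and 611 CPM, and Ncr1 was at 0 and 37.5 CPM. The rule gene they shared most often with the NK cells was Eomes, found in 41 of the 56 and 70 of the 100, at 381 and 485 CPM, and Klre1 was at 324 and 423 CPM. Gzma was at 5862 CPM in CP, held by 16 of the 56 cells, and at 2468 in CP+EVs, held by 42 of the 100. Prf1 was at 76.9 and 112 CPM and Ly6c2 at 1873 and 2329. Zbtb16 (PLZF), the factor of invariant NKT cells, was at 33.4 and 31.9 CPM.

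Glycolysis genes had a median log2 ratio of -0.33 over 14 measured genes in NK cells, with Hk2 and Tpi1 at least 2-fold lower in CP+EVs and 0 higher. The same list had a median of -0.53 in T cells.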
